A study of Rattus norvegicus with 46 samples.

Results

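The 10 genes described here mark T cells and their main classes: Cd3e, Cd4, Cd8a, Cd8b, Foxp3, Ctla4, Il2ra, Ikzf2, Icos and Cd28. They were taken by name from count tables of 30045 genes, and all 10 were found once in each table and passed the filter on low counts in every comparison. The samples are RNA of the lungs and the blood of male rats of the Fischer 344 strain, described in the study's title as aged. The animals carried no genetic change that the labels name, and they breathed either filtered air or quartz dust (Min-U-Sil 5) in a whole-body chamber. Exposure lasted 6 hours a day over 5 days, at 15 mg/m3 for the dust. Lung and blood were taken 1 day or 6 months after exposure ended, which gives 8 groups by tissue, exposure and time. Whether each sample is its own animal is not stated in the labels, so every p-value measures the spread between these libraries.

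CD3 epsilon is part of the CD3 complex that carries the signal of the T cell receptor. CD4 marks helper T cells, which see antigen on MHC class II, and in the rat macrophages carry CD4 as well. CD8 marks cytotoxic T cells. On conventional CD8 T cells it is a pair of an alpha and a beta chain, whereas rat natural killer (NK) cells and some other lymphocytes carry the alpha chain alone. FOXP3 is the transcription factor that defines regulatory T cells, which hold back immune responses. These cells also carry CTLA-4, a receptor that takes the ligands CD80 and CD86 away from the costimulatory receptor CD28, and the alpha chain of the interleukin-2 receptor, encoded by Il2ra. Ikzf2 encodes Helios, a factor of many regulatory T cells, and ICOS is a costimulatory receptor that appears on activated T cells. In whole tissue, fewer cells of a type and less RNA per cell cannot be told apart.

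Library totals were 13369309 to 24638427 counts in lung and 10631882 to 17519959 counts in blood. There were 5 pairs of lung samples whose counts were nearly identical, and each pair was averaged and counted as 1 library, named by both numbers. The comparisons then rest on 4 air and 6 silica libraries for lung at 1 day, on 2 and 5 for lung at 6 months, and on 6 in each blood group. The 2 air libraries of 6 months, 19-24 and 20-25, stood apart from all other lung libraries: the summed level of 10 marker genes of NK cells and large granular lymphocytes was 3027 and 2503 CPM there (CPM, the count scaled to a library total common to all libraries), against 263 to 855 CPM in the late silica lungs. Blood air library 25 of 6 months stood apart in the same genes, at 1558 CPM against 300 to 543 CPM in the other late air blood. Lung libraries 20 and 25 were nearly identical, whereas blood libraries 20 and 25 were not: Cd8a was at 81.0 CPM in blood library 20 and at 292 CPM in blood library 25. The part of these libraries' other lymphocyte RNA in the results was not tested. CPM were scaled within each tissue and time, so a level set across times joins separately scaled tables.

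The start regions of 4 of the genes are shown, of which 3 rose in late silica lungs (Cd3e, Il2ra and Cd28) while Cd8a fell. Foxp3, Ctla4 and Icos rose as well, but their promoter start in RefSeq is not the outer end of the gene. The 4 regions shown were taken only because their start is that end, not by response. Each is the 150 bases before the start, 5′ to 3′ on the gene's strand, from RefSeq's GRCr8 build, which is not the build named for these counts. Capitals mark the RUNX motif TGTGGT on either strand; no sequence has it beyond those marked.
Cd3e, chr8:54211771-54211920, minus strand: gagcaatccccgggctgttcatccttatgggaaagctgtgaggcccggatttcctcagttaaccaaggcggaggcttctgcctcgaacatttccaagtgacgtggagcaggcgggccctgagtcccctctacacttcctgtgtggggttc
Il2ra, chr17:71808476-71808625, minus strand: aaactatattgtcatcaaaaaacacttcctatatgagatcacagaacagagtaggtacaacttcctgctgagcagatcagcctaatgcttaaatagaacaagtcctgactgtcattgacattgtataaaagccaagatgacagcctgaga
Cd28, chr9:69660166-69660315, plus strand: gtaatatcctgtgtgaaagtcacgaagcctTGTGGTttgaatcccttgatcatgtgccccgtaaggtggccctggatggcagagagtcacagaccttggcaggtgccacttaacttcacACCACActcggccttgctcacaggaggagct
Cd8a, chr4:104923966-104924115, plus strand: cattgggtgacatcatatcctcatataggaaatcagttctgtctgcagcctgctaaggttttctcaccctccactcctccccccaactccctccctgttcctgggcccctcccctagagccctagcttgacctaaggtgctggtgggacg

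Over the 250 bases before the start, TGTGGT was present in 14.5% of 33469 rat promoters, and among the 8 genes with a promoter in the table it was found in Cd28 alone, at 2 places. The STAT motif TTCNNNGAA (7.67% of promoters), the AP-1 motif TGANTCA (6.34%) and the NFAT motif GGAAAA (21.6%) were searched on both strands as well and were found in none of the 8. A match or its absence describes these letters in this window only. Cd4 and Cd8b had no entry.

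The first comparison asked which T cell genes differed between silica and air lungs 1 day after exposure. Icos was the 1 gene of the 10 that rose, and none fell, where 7.61% of the 15724 genes tested rose and 4.07% fell. Icos was at 6.42, 5.99, 5.75 and 4.85 CPM in the air lungs (libraries 02-07, 04-08, 05 and 06), and from 7.38 CPM in the lowest to 9.75 CPM in the highest of the 6 silica lungs. No silica lung overlapped with an air lung. The log2 fold change was 0.63 ± 0.11 (SE, adjusted p = 0.00217), and Icos passed each time when any 1 of the 10 libraries was left out, with adjusted p-values of 0.00142 to 0.0104.

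Foxp3 was at 0.951, 0.892, 1.20 and 0.799 CPM in the air lungs of 1 day and from 1.06 to 1.68 CPM in the silica lungs, with a median of 1.34 CPM. The lowest silica lungs overlapped with the highest air lung, and the log2 difference of 0.51 ± 0.21 did not pass (adjusted p = 0.159, 95% interval 0.09 to 0.93). Cd8a was at 70.0 CPM in air library 04-08 and from 36.2 to 40.9 CPM in the other 3 air lungs, while silica library 10 held 133 CPM against 29.6 to 70.3 CPM in the other 5 silica lungs. Those 2 high libraries were also the highest of their groups in NK and large granular lymphocyte genes, at 597 CPM and 583 CPM.

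The other genes overlapped between the groups at 1 day. Their log2 differences were 0.21 ± 0.15 for Cd3e, 0.13 ± 0.09 for Cd4, 0.32 ± 0.48 for Cd8a, -0.22 ± 0.18 for Cd8b, 0.31 ± 0.37 for Ctla4, 0.35 ± 0.21 for Il2ra, -0.07 ± 0.18 for Ikzf2 and 0.25 ± 0.23 for Cd28, and none passed. Their 95% intervals reached from -0.61 to 1.26 for Cd8a, the widest, and from -0.04 to 0.31 for Cd4, the narrowest. The plot of lung CPM shows that the silica lungs of 1 day stood clear of their controls for Icos alone.

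**Figure D1:**
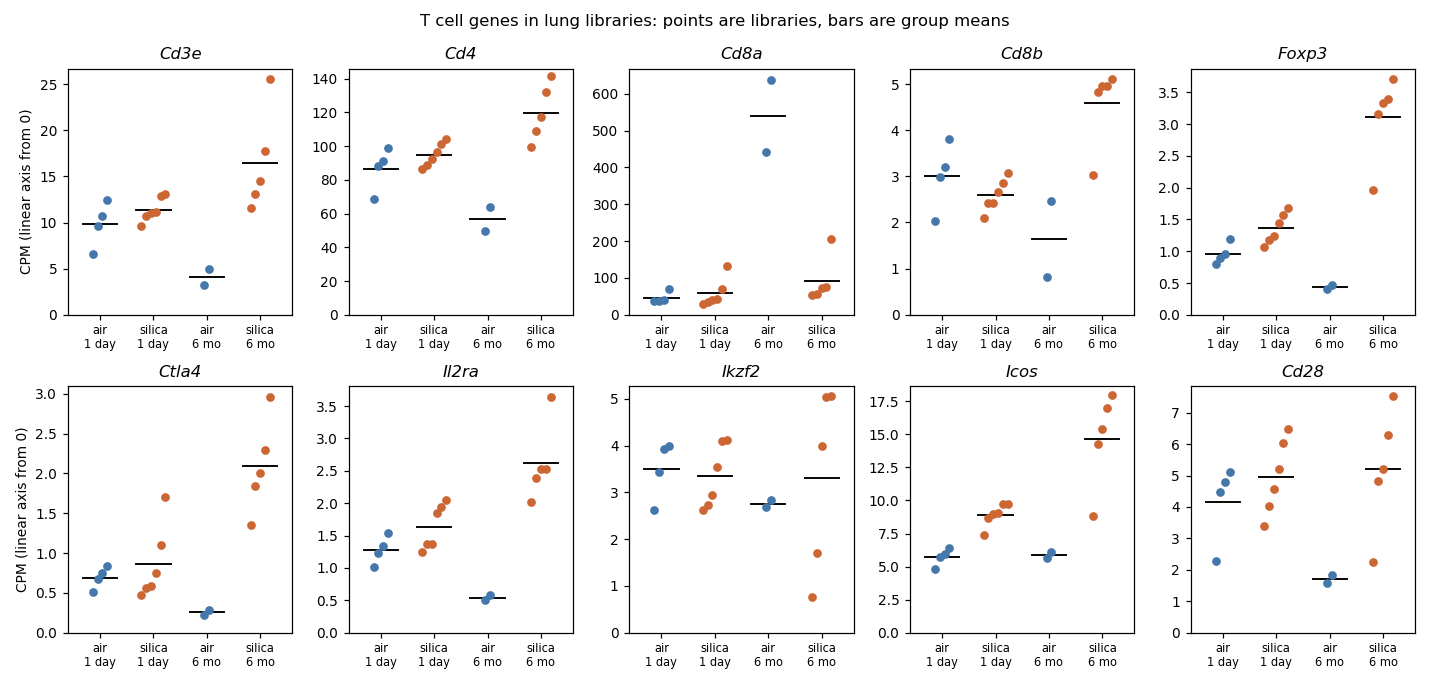
CPM of the 10 genes in lung (vertical axis, linear, from 0) for each of the 4 groups; points are libraries, with near-identical pairs averaged, and bars are group means. Foxp3 lies between 1.96 and 3.71 CPM in the late silica lungs and at 0.462 and 0.410 CPM in the late air lungs, and Cd8a lies at 638 and 443 CPM in the late air lungs.

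At 6 months the same comparison gave 7 genes that rose and 1 that fell among the 10, where 9.51% of 16267 genes rose and 10.1% fell. The largest rises among the 10 were those of Ctla4 (7.96-fold), Foxp3 (7.07-fold) and Il2ra (4.85-fold), which regulatory T cells carry, while Ikzf2 did not pass. The T cell receptor gene Cd3e, the helper gene Cd4 and the costimulatory receptors Icos and Cd28 rose as well, and Cd8a fell by 2.55 on the log2 scale, more than the rise of Il2ra. The median log2 fold change was 1.54 for the 10 genes and -0.00 for all genes tested. All of these calls rest on 2 air libraries that stood apart, and none of the 10 genes passed without air library 19-24; in that fit 9 genes of the whole table rose and 47 fell.

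Foxp3 was at 0.462 and 0.410 CPM in the late air lungs, which is 8 and 9 counts as the mean of each pair. In the late silica lungs it was at 1.96 CPM in library 30-31, 3.15 in 32, 3.71 in 33, 3.40 in 34 and 3.33 in 35. Every silica lung was above both air lungs, and library 30-31, which also had the highest NK gene level of the group (855 CPM), was the lowest of the 5. The log2 fold change was 2.82 ± 0.35 (adjusted p = 0.00539), and without air library 19-24 it was 2.92 with an adjusted p of 0.0674.

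Ctla4 was at 0.289 and 0.228 CPM in the late air lungs, 5 counts in each, close to the limit of detection that 3 counts set. It was at 1.35, 2.01, 2.30, 1.85 and 2.95 CPM in the silica lungs, in the order of libraries given for Foxp3. The groups did not overlap, and the log2 fold change was 2.99 ± 0.43 (adjusted p = 0.00701). Without air library 19-24 the adjusted p was 0.0779.

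Il2ra, whose product lets regulatory and activated T cells bind interleukin-2 tightly, was at 0.577 and 0.501 CPM in the late air lungs. It was at 2.02, 3.65, 2.53, 2.53 and 2.39 CPM in the silica lungs, a log2 fold change of 2.28 ± 0.33 (adjusted p = 0.00720, and 0.0807 without air library 19-24). Ikzf2 differed from these 3 genes: it was at 2.83 and 2.69 CPM in the air lungs and at 3.98, 5.04, 0.765, 5.05 and 1.70 CPM in the silica lungs. The silica lungs lay on both sides of the air lungs, with 33 and 35 below them, and the log2 difference was 0.27 ± 0.66 (adjusted p = 0.807, 95% interval -1.01 to 1.56).

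Cd3e was at 3.23 and 5.01 CPM in the late air lungs and at 11.6, 13.1, 17.7, 14.5 and 25.6 CPM in the late silica lungs. The groups did not overlap, and Cd3e rose by 1.99 ± 0.37 on the log2 scale (adjusted p = 0.0123, and 0.142 without air library 19-24). Cd4 was at 49.6 and 63.8 CPM in the air lungs and at 117, 141, 109, 99.7 and 132 CPM in the silica lungs, a rise of 1.08 ± 0.18 (adjusted p = 0.00934, and 0.116 without air library 19-24). Since macrophages carry Cd4 too, the summed level of 9 monocyte and macrophage genes stands beside it: 13770 and 14940 CPM in the air lungs and 25610 to 55060 CPM in the silica lungs. The part of macrophage RNA in the Cd4 level was not tested.

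The 2 chains of CD8 went apart. Cd8a was at 638 and 443 CPM in the late air lungs and at 205 CPM in silica library 30-31 and 55.5, 74.6, 52.4 and 73.5 CPM in libraries 32 to 35. It fell by 2.55 ± 0.50 on the log2 scale (adjusted p = 0.0141, and 0.136 without air library 19-24). Cd8b was at 0.808 and 2.46 CPM in the air lungs and at 3.03, 5.12, 4.83, 4.95 and 4.97 CPM in the silica lungs. All silica lungs were above both air lungs for Cd8b, but the log2 difference of 1.47 ± 0.43 did not pass (adjusted p = 0.0507, 95% interval 0.62 to 2.32). It passed in the fits with DESeq2 (adjusted p = 0.00492) and with every library counted separately (adjusted p = 0.0160). The latter fit takes near-identical libraries as independent. Dropping single libraries moved the Cd8b difference between 0.91 and 2.51, and Cd8b passed in 2 of those 7 fits. The fall of Cd8a passed in more of these fits than the rise of Cd8b. When the air lungs of 1 day served as control instead, Cd8b kept its sign while Cd8a changed it, and neither passed.

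The ratio of Cd8a to Cd8b within a library shows this split without reference to other genes. It was 789 and 180 in the late air lungs, 67.7 in silica library 30-31 and 10.6 to 15.5 in the other 4 late silica lungs. In the lungs of 1 day the ratio was 34.3 in air library 04-08 and 10.8 to 12.1 in the other 3 air lungs, and 54.9 in silica library 10 and 9.60 to 24.6 in the other 5 silica lungs. The plot of Cd8a against Cd8b and against NK genes shows that in each of the 4 lung groups the library with the highest Cd8a level was the one with the highest NK gene level. Of the 10 NK and large granular lymphocyte genes, 8 fell and none rose in late silica against air lungs, with a median log2 fold change of -2.32; none of the 10 was at 0 in a late lung. Their part in the level of Cd8a was not tested.

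**Figure D2:**
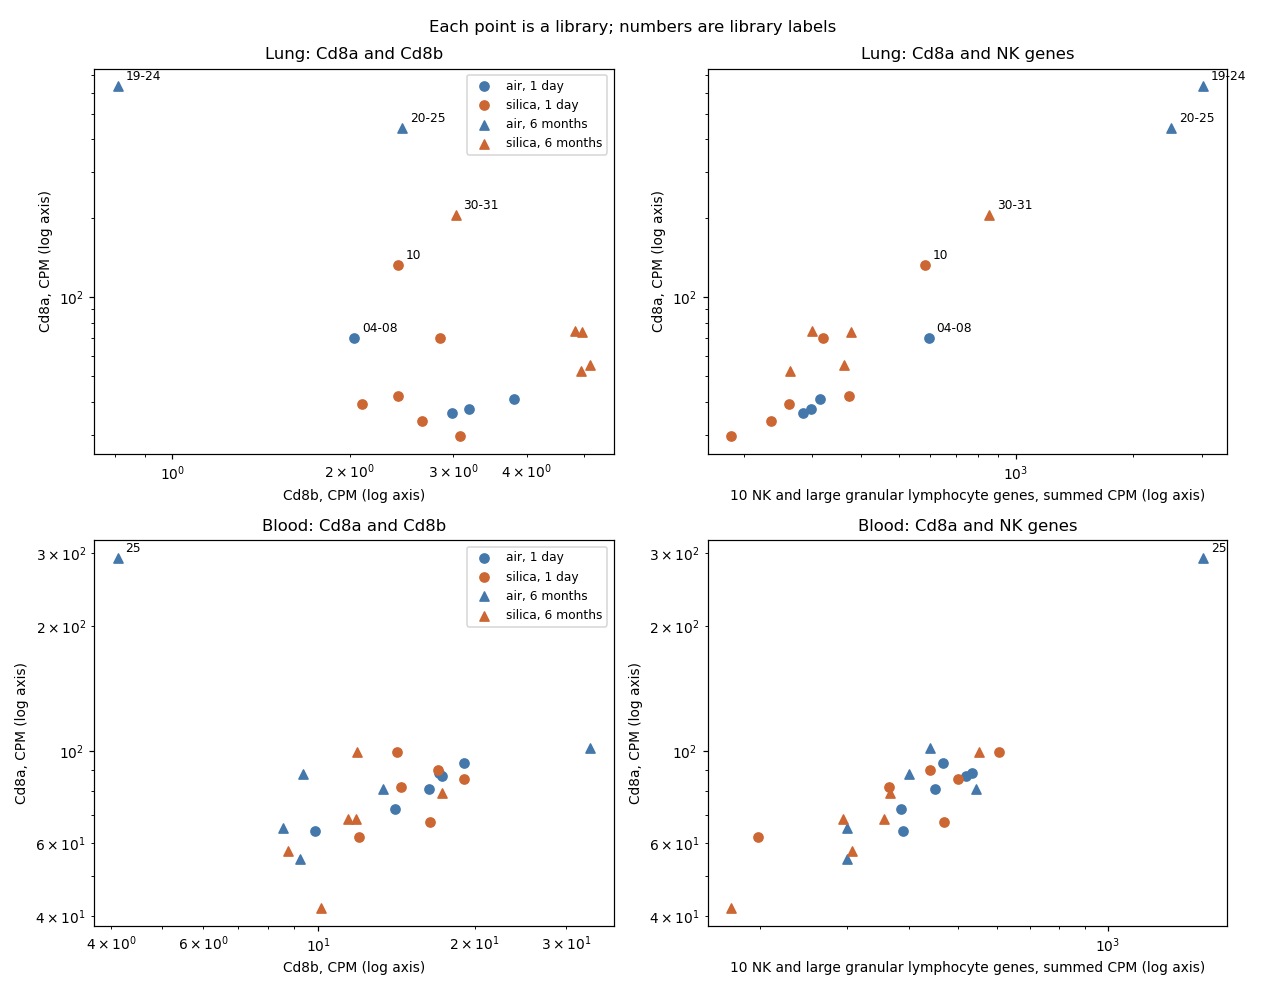
Cd8a CPM (vertical, log axis) against Cd8b CPM (left, log axis) and against the summed CPM of 10 NK and large granular lymphocyte genes (right, log axis), in lung (top) and blood (bottom); each point is a library, coloured by exposure and shaped by time. Late air lungs 19-24 and 20-25 and blood air library 25 have the highest Cd8a, at 638, 443 and 292 CPM, with 3027, 2503 and 1558 CPM of NK genes.

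Icos was at 6.12 and 5.65 CPM in the late air lungs and at 8.86, 15.4, 14.2, 18.0 and 17.0 CPM in the late silica lungs. The groups did not overlap, and Icos rose by 1.32 ± 0.28 on the log2 scale (adjusted p = 0.0185, and 0.152 without air library 19-24, 0.104 without 20-25). Cd28 was at 1.85 and 1.59 CPM in the air lungs and at 6.28, 7.54, 2.24, 5.20 and 4.84 CPM in the silica lungs. Every silica lung was above the air lungs, library 33 by the least, and the rise of 1.60 ± 0.45 only just passed (adjusted p = 0.0446): when any 1 of the 7 libraries was left out, it passed only without silica library 33 (adjusted p = 0.00734).

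Silica libraries 33 and 35 of 6 months were low in Ikzf2 but not in Foxp3 or Cd3e. The ratio of Cd28 to Cd3e was 0.126 in library 33 and 0.189 in library 35, against 0.358 to 0.575 in the other 3 late silica lungs and 0.349 to 0.465 in the air lungs of 1 day. Lung epithelium genes summed to 58220 CPM in library 33, the highest of any lung. The part of this in the levels of Cd28 and Ikzf2 was not tested.

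**Figure D3:**
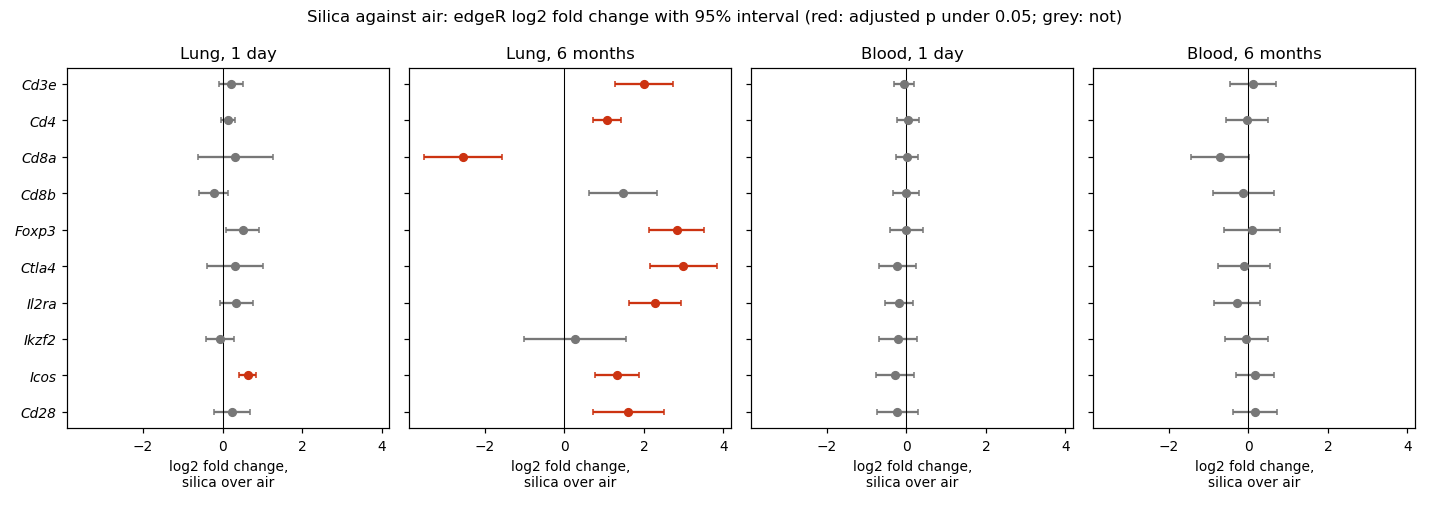
Log2 fold change of silica over air for the 10 genes (rows) in lung and blood at 1 day and 6 months (panels); points are edgeR estimates, lines their 95% intervals, and red marks an adjusted p under 0.05. Icos alone is red in lung at 1 day, 8 genes are red in lung at 6 months with Cd8a on the other side of 0, and none is red in blood.

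Because the late air lungs stood apart, the late silica lungs were also set against the air lungs of 1 day, an alternative chosen after the data were seen, in which time and exposure differ together. In that fit 13.8% of 16567 genes were higher and 12.2% lower in late silica lungs. Of the 10 genes 6 were higher and none was lower: Foxp3 by 1.73 ± 0.21 (adjusted p = 4.77e-05), Ctla4 by 1.61 ± 0.35 (0.00303), Icos by 1.38 ± 0.17 (4.46e-05), Il2ra by 1.06 ± 0.21 (0.00187), Cd3e by 0.77 ± 0.22 (0.0181) and Cd4 by 0.50 ± 0.12 (0.00522). Cd8a had the opposite sign to the main comparison, 1.03 ± 0.49, and did not pass (adjusted p = 0.137). Cd28 was at 0.36 ± 0.30 (0.389), Cd8b at 0.64 ± 0.25 (0.0761) and Ikzf2 at -0.04 ± 0.38 (0.950). The map of the late lung fits shows the same genes under each left-out library.

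**Figure D4:**
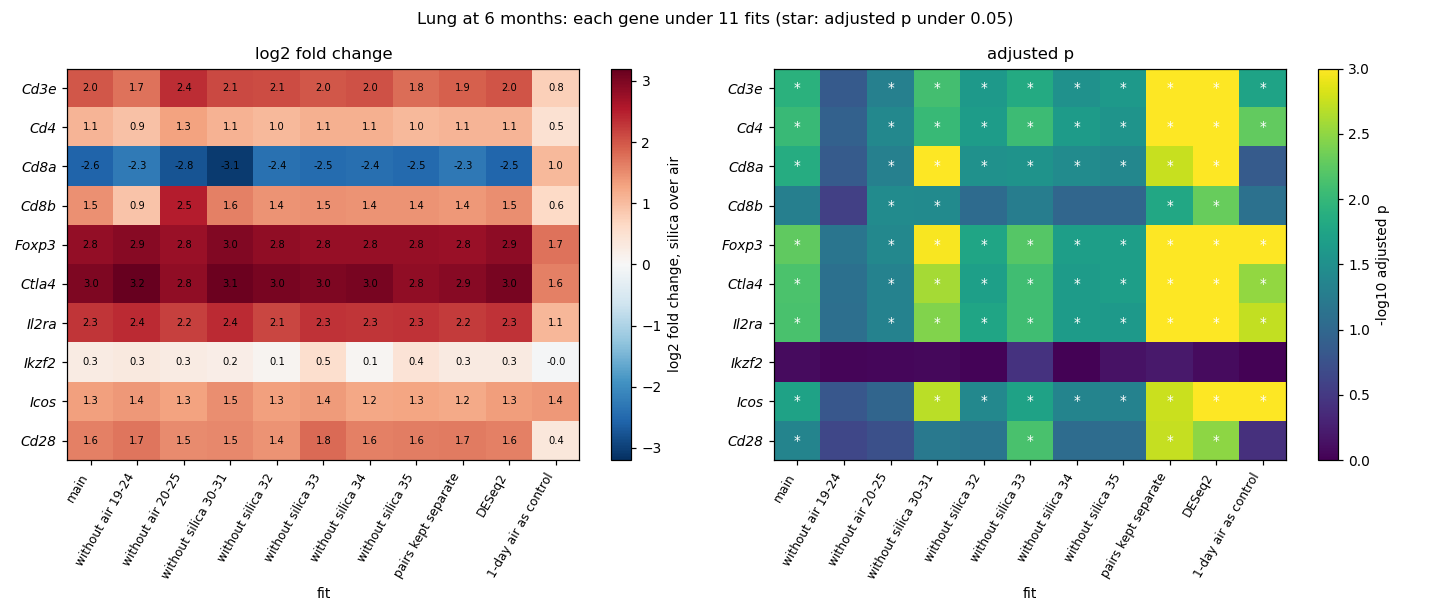
Log2 fold change (left) and -log10 adjusted p (right) of the 10 genes (rows) in lung at 6 months under 11 fits (columns): the reported one, 7 that each leave out 1 library, and 3 others; stars mark an adjusted p under 0.05. No gene has a star without air library 19-24, and Cd8a is blue in every column but the one with 1-day air lungs as control.

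The silica effect itself differed between the times in lung for 7 of the 10 genes. The difference, 6 months minus 1 day, was positive for Foxp3 (2.29 ± 0.36, adjusted p = 5.04e-04), Ctla4 (2.65 ± 0.61, 0.00533), Il2ra (1.90 ± 0.36, 0.00158), Cd3e (1.75 ± 0.36, 0.00286), Cd4 (0.92 ± 0.19, 0.00236) and Cd8b (1.66 ± 0.42, 0.00861), and negative for Cd8a (-2.90 ± 0.74, 0.0102). Of all 16567 genes, 12.1% passed with a positive and 14.6% with a negative difference. Icos (0.66 ± 0.26, adjusted p = 0.0695), Cd28 (1.33 ± 0.49, 0.0550) and Ikzf2 (0.32 ± 0.60, 0.737) did not pass. Without air library 19-24 of 6 months, Cd8a and Cd8b no longer passed (0.0713 and 0.0787).

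The 2 arms of this difference can be set side by side, with time of sampling and time of sequencing not told apart. From 1 day to 6 months in silica lungs, 6 of the 10 genes rose and none fell, where 4.43% of genes rose and 5.21% fell. Foxp3 rose by 1.22 ± 0.18 (adjusted p = 0.00107), with no overlap between the 1.06 to 1.68 CPM of the early and the 1.96 to 3.71 CPM of the late silica lungs. Ctla4 (1.30 ± 0.30), Cd8b (0.86 ± 0.23), Icos (0.75 ± 0.14), Il2ra (0.71 ± 0.18) and Cd4 (0.37 ± 0.10) rose with some overlap. Cd3e (0.56 ± 0.20, adjusted p = 0.0743), Cd8a (0.71 ± 0.43, 0.274), Cd28 (0.11 ± 0.26, 0.789) and Ikzf2 (0.03 ± 0.34, 0.957) did not pass. Without silica library 14 or without silica library 15 of 1 day, the count was 3 in place of 6.

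From 1 day to 6 months in air lungs, Cd8a rose and 5 of the 10 genes fell, where 22.5% of genes rose and 19% fell. Cd8a rose by 3.61 ± 0.60 (adjusted p = 2.88e-04), from 36.2 to 70.0 CPM in the early to 443 and 638 CPM in the late air lungs. Cd28 (-1.21 ± 0.42), Cd3e (-1.19 ± 0.31), Il2ra (-1.19 ± 0.31), Foxp3 (-1.07 ± 0.31) and Cd4 (-0.55 ± 0.15) fell, with no overlap. Ctla4 (-1.35 ± 0.53, adjusted p = 0.0513) and Cd8b (-0.80 ± 0.34, 0.0721) did not pass, nor did Icos (0.09 ± 0.21, 0.759) and Ikzf2 (-0.28 ± 0.50, 0.679). Without air library 19-24 the count was 2 in place of 6, and without 20-25 it was 4; Foxp3 passed in neither fit (adjusted p = 0.0609 and 0.102). Both arms share libraries with the comparisons of silica against air, so they are not separate evidence for them.

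Levels of the other genes per unit of Cd3e describe the libraries apart from their total T cell signal. Foxp3 per Cd3e was 0.130 to 0.241 in the late silica lungs, with a median of 0.209, against 0.143 and 0.0818 in the late air lungs and 0.0762 to 0.136 in the air lungs of 1 day. Ctla4 per Cd3e was 0.116 to 0.153 in the late silica lungs and 0.0893 and 0.0455 in the late air lungs. The lowest late silica lung was below the higher air lung for Foxp3 per Cd3e, and above both for Ctla4 per Cd3e; neither ratio was tested. Icos per Cd3e was 0.663 to 1.24 in the late silica lungs and 1.89 and 1.13 in the late air lungs. The lower air lung was inside the silica range. At 1 day Icos per Cd3e was 0.574 to 0.903 in the silica lungs and 0.503 to 0.913 in the air lungs. Air library 04-08 was above every silica lung of that time, and the other air lungs were below them all. Il2ra per Cd3e was 0.0934 to 0.278 in the late silica lungs. Both late air lungs, from 0.1 to 0.179, were inside that range. The Icos and Il2ra ratios were not tested either.

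Other genes of the T cell receptor pathway were split at 6 months in lung. Of 16 genes of the receptor complex and its signalling, 8 rose and 6 fell, with a median log2 fold change of 0.89. The CD3 chains Cd3d (2.23 ± 0.44, adjusted p = 0.0141) and Cd3g (2.22 ± 0.38) and the surface receptor Cd5 (2.24 ± 0.34) rose, as Cd3e did. Cd247, the zeta chain that NK cells use as well, fell by 2.96 ± 0.37 (adjusted p = 0.00537), from a mean of 243 CPM in air to 31.2 CPM in silica lungs. Of 8 naive and memory genes tested, 2 rose and none fell, and their median log2 fold change was 0.06. Ccr7 (2.32 ± 0.36), which encodes a chemokine receptor that guides T cells to lymph nodes, was among those that rose.

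Of 12 other costimulatory and inhibitory receptors, with Pdcd1 counted on 2 identifiers, 5 rose and 5 fell. Tnfrsf4, which encodes the activation receptor OX40, rose by 2.43 ± 0.57, and Lag3 (-3.12 ± 0.30), Cd160 (-3.08 ± 0.67) and Cd27 (-2.94 ± 0.53) fell. Among 12 helper genes tested, 5 rose and 4 fell. The type 1 helper and NK cell factor Tbx21 (-2.54 ± 0.47), Ifng (-2.62 ± 0.64) and the interleukin-12 receptor gene Il12rb2 (-2.08 ± 0.54) fell, and the chemokine receptor gene Ccr4 (2.13 ± 0.48) rose. Ifng had a mean of 0.917 CPM in air and 0.139 CPM in silica lungs, the latter close to the limit that 3 counts set. Ccr4 (0.252 CPM) and Tnfrsf4 (0.384 CPM) had low means in the air lungs.

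Of 10 further genes associated with regulatory T cells, 2 rose and 4 fell, and their median log2 fold change was -0.11. Ebi3, a cytokine subunit gene, rose by 1.44 ± 0.33, whereas Il2rb (-2.70 ± 0.47), Nt5e (-1.77 ± 0.26) and Prdm1 (-1.49 ± 0.23) fell. Il2rb, the beta chain of the interleukin-2 receptor that NK cells carry too, had a mean of 616 CPM in late air lungs and 94.5 CPM in late silica lungs, the opposite direction to Il2ra. Of the ligands on antigen-presenting cells, Cd86 (1.65 ± 0.32), Cd274 (0.92 ± 0.21) and the ICOS ligand gene Icoslg (0.77 ± 0.14) rose and Cd80 (-1.85 ± 0.36) fell, among 7 tested.

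The same lists were tested at 1 day in lung. None of the 16 receptor complex and signalling genes passed. Tnfrsf9 (2.06 ± 0.20), which encodes the activation receptor 4-1BB, and Havcr2 (0.95 ± 0.19) rose among the other costimulatory and inhibitory receptors. Ccr4 (1.37 ± 0.35) and Il1rl1 (0.33 ± 0.09) rose among the helper genes, and Batf (0.90 ± 0.13) and Itgae (0.49 ± 0.10) among the genes associated with regulatory T cells, of which Lrrc32 fell by 0.26 ± 0.08. Ccr7 (0.57 ± 0.15) rose while S1pr1 (-0.50 ± 0.08), the receptor for lymphocyte exit, which endothelium carries too, and Satb1 (-0.30 ± 0.06) fell. Cd274 (0.38 ± 0.06) was the 1 ligand gene that rose.

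Markers of other leukocytes and of proliferation also differed between silica and air lungs. Neutrophil genes rose in 8 of 10 cases at both times, from a summed 353 to 428 CPM to 1182 to 1609 CPM at 1 day and from 187 and 242 CPM to 1167 to 3283 CPM at 6 months. Of 8 B cell genes tested at 6 months, 4 rose and none fell, and the list summed to 34.6 and 37.4 CPM in air and 39.7 to 52.9 CPM in silica lungs; Cd79a, part of the B cell receptor, was at 0 in both late air lungs. Proliferation genes fell in 7 of 8 cases at 6 months, from 641 and 559 CPM in the air lungs to 122 to 279 CPM in the silica lungs. Their part in the levels of the 10 genes was not tested.

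In blood none of the 10 genes passed at either time. At 1 day 0% of 11876 genes rose and 0% fell by edgeR, with 430 genes at an unadjusted p under 0.05 and 0 passing by DESeq2. At 6 months 0% of 11615 genes rose and 0% fell, with 720 at an unadjusted p under 0.05 and 2 passing by DESeq2. None of the 10 genes was under 0.05 unadjusted at either time. The lists of related genes also held no gene that passed in blood.

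Foxp3 in blood at 1 day had a lowest, median and highest value of 5.49, 6.85 and 8.88 CPM with air and 4.40, 6.72 and 10.5 CPM with silica. The groups overlapped almost wholly, with a log2 difference of -0.01 ± 0.21 (95% interval -0.42 to 0.41). At 6 months Foxp3 was at 0.965 CPM in air library 25 and 4.93 to 6.76 CPM in the other 5 air samples, and at 3.01 to 6.48 CPM with silica. The log2 difference was 0.09 ± 0.36 (95% interval -0.61 to 0.79), and an increase as large as that fitted in late lungs, 2.82, lies outside this interval.

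Cd8a in blood at 1 day was at 64.0, 83.9 and 93.5 CPM (lowest, median and highest) with air and 62.1, 84.0 and 99.7 CPM with silica. At 6 months it was at 54.8 to 102 CPM in 5 air samples and 292 CPM in air library 25, against 41.8 to 99.4 CPM with silica. The log2 difference at 6 months was -0.72 ± 0.37 (adjusted p = 0.658, 95% interval -1.45 to 0.01) and -0.20 ± 0.20 without library 25. Library 25 also had the lowest Cd3e (12.7 CPM against 37.5 to 72.6), Cd4 (39.4 against 84.0 to 159) and Cd8b (4.12 against 8.57 to 33.3) of its group, and a ratio of Cd8a to Cd8b of 70.9, where the other 23 blood libraries ranged from 3.06 to 9.42. Its TMM scaling factor, 1.93, was the highest of any blood library and lowers all its CPM. Before scaling its Cd3e was at 394 counts against 516 to 1380. Cd4 was at 1226 counts against 1423 to 2432, and Cd8b at 128 against 129 to 633. The library with the highest Cd8a level in the blood of that group was again the one with the highest NK gene level.

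Ctla4, Icos, Cd28, Ikzf2 and Il2ra in blood at 1 day were each lowest in silica library 11. There Cd28 was at 6.86 CPM against 23.6 to 30.6 CPM in the other 5 silica samples, Icos at 3.48 against 10.2 to 15.5 CPM, and Ctla4 at 1.20 against 3.09 to 3.44 CPM. By CPM, Foxp3 (10.5) and Cd4 (167) were highest in the same library, and Cd3e (66.5) was within the range of the others. The TMM scaling factor of library 11, 0.697, was the lowest in blood of 1 day and raises all its CPM. Before scaling, Foxp3 was at 96 counts there and at 120 in library 14. Cd4 was at 1537 counts there and at 2245 in library 15, and Cd3e at 611 against 807 to 1285 in the others. Library 11 had 14187 genes with a count, the fewest of any blood library. Without it the log2 difference of Cd28 was -0.03 ± 0.10 in place of -0.23 ± 0.26, and none of the 10 genes passed.

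**Figure D5:**
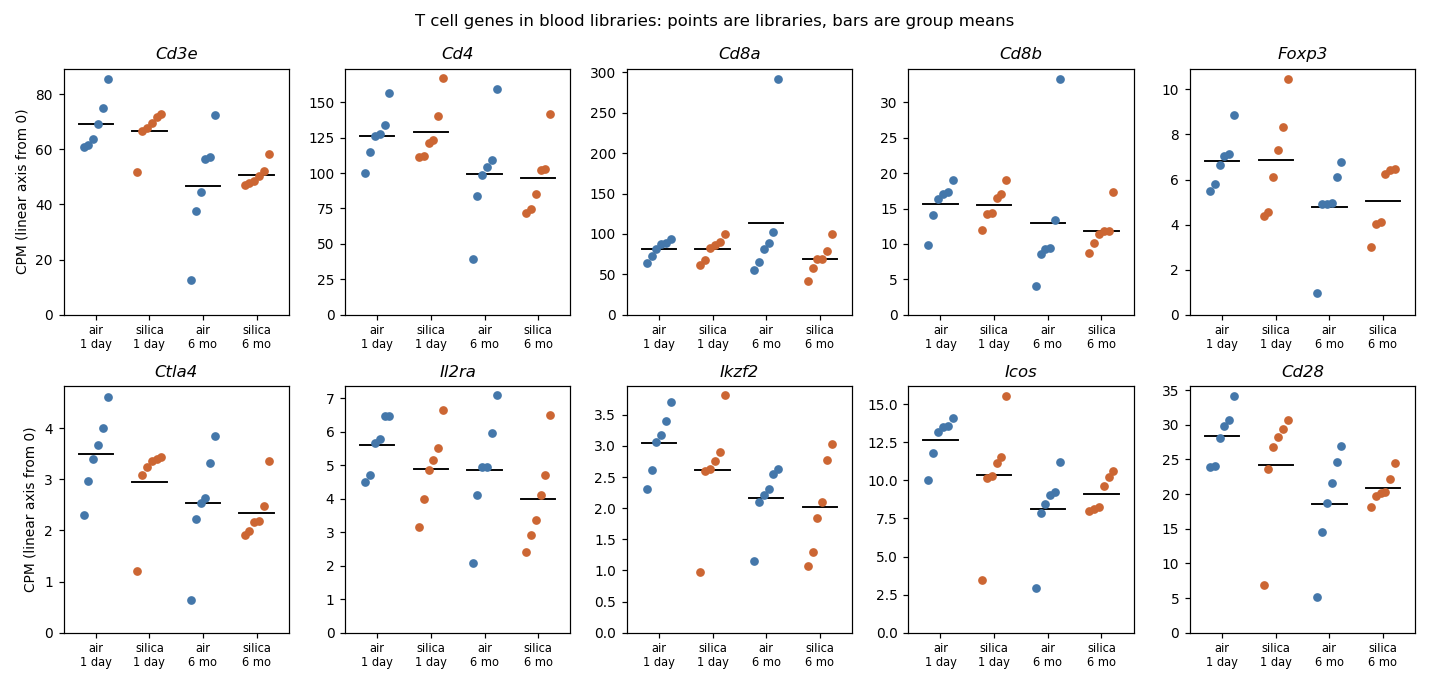
CPM of the 10 genes in blood (vertical axis, linear, from 0) for each of the 4 groups; points are libraries and bars are group means. Silica and air overlap for every gene at both times, with air library 25 of 6 months at 292 CPM of Cd8a and silica library 11 of 1 day at 6.86 CPM of Cd28.

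A difference of the silica effect between the times in blood passed for none of the 10 genes, with 0% of 12264 genes passing in either direction and 335 at an unadjusted p under 0.05. The largest difference among the 10 was that of Cd8a, -0.72 ± 0.41 (95% interval -1.52 to 0.08). Between the tissues, a difference of the effect at 1 day passed for none of the 10, where 0.0186% of 16148 genes passed with a higher and 0.173% with a lower effect in blood. Icos had the smallest unadjusted p of the 10 there, 0.00893, with a log2 difference of -0.88 ± 0.31 (adjusted p = 0.492); without blood silica library 11 it was -0.70 ± 0.17 (adjusted p = 0.0557).

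At 6 months the effect in blood was lower than in lung for Ctla4 (-3.23 ± 0.64, adjusted p = 0.0177), Il2ra (-2.69 ± 0.54, 0.0185) and Foxp3 (-2.86 ± 0.67, 0.0385), where 0.614% of 16447 genes passed with a higher and 0.559% with a lower effect in blood. The median difference of all genes was -0.14. The other 7 genes did not pass, among them Cd3e (-2.02 ± 0.54, adjusted p = 0.0764) and Cd8a (1.69 ± 0.66, 0.249). This count moved with single libraries: Foxp3 passed in 5, and Ctla4 and Il2ra in 17, of the 19 fits without 1 library. The count was 0 without lung air library 19-24 or without lung air library 20-25. Without blood air library 25 it was 8, in a fit where 1257 of all genes passed, with Cd3e, Cd4, Foxp3, Ctla4, Il2ra, Icos and Cd28 lower and Cd8a higher in blood. With the library number as a block and pairs kept separate, a fit in which 4 of all genes passed, none of the 10 did (adjusted p = 0.351 for Foxp3, 0.357 for Ctla4 and 0.272 for Il2ra), and the labels do not say whether equal numbers mark the same rat.

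Genes with a pattern like that of Foxp3 and of Cd8b were taken over the 8 group means of log2 CPM, each gene centred on its own mean, among 15846 genes. Nearest to Foxp3 by Euclidean distance were Kcnn4 (0.34), which encodes a potassium channel of activated T cells among others, Il9r (0.54), RGD1307182 (0.68), Ctla4 (0.70) and LOC102546487 (0.74). Nearest to Cd8b were Plac8 (0.44), RGD1561143 (0.53), Hpse (0.56), Opn3 (0.57) and Capn3 (0.57). Means of both tissues enter this distance.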

How the data were processed

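The authors deposited unscaled estimated counts per gene in 4 tables, which split the samples by tissue and by time. Salmon 1.10.1, STAR 2.6.1d and the build Rnor_6.0 are among the names in the submitters' processing notes, which do not give their roles. Per the labels' protocols, blood RNA was depleted of globin transcripts and the libraries are stranded. All columns were matched to samples by name, and 0 were left over. Estimated counts need not be whole: they were not in 23.9% of samples for Cd4 and 19.6% for Cd8a, and in 2.17% or fewer for the other 8 genes.

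Counts were rounded, genes kept by filterByExpr (minimum count 10, total 15), and tested with edgeR 4.0.16 in R 4.3.3: TMM factors, robust quasi-likelihood F test, Benjamini-Hochberg adjustment over all genes tested, threshold 0.05. Silica was tested against air within each table. Differences between times and tissues were contrasts of group means. The TMM factors of lung libraries lay between 0.950 and 1.03, those of blood between 0.521 and 1.93. CPM are counts over the TMM-scaled library size. Intervals are 1.96 standard errors to either side. They are approximate, and narrower than the F test implies where a group has few libraries. Before scaling, 3 counts correspond to 0.122 to 0.282 CPM, which covers counting error only.

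Libraries of a group with under 10% of genes differing at p under 0.05 (chi-square, genes with whole counts and a mean of at least 20) were averaged and counted as 1. The form of this test was chosen after 10 forms had been tried and results of several were known: 4 put the 5 pairs used here under the limit, 1 put 3 and 5 put 1. In every form these 5 pairs were the lowest, at up to 11.6%, and the next pair was at 19.5% or more. Over the form used, the 5 pairs lay at 7.71% to 9.65%, and the other lung pairs at 21.2% to 74.1%. The versions with 1 or 3 pairs stand among the alternatives.

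The 10 genes, the lists, the comparisons and the rule for named genes were chosen with earlier results of these data known. The rule names all 10 genes, up to 4 called genes with the largest change from each pathway list in each silica comparison, and the 5 genes nearest to Foxp3 and to Cd8b (at least 1 CPM in a group, 0.1 CPM added before the log). Il7r, Bach2, Fcmr and Adgre1 were not found under these names, and some genes that the rule takes from the lists are not reported here. Marker genes are summed CPM per library. The scripts were tested on simulated data. DESeq2 1.42.0 was an alternative. No coordinates in the files' build were used; promoters come from RefSeq.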

Additional observations from a re-analysis of the deposited data

Results flagged for a closer look

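Of 70 sets of values (a gene in a group of 4 to 6 libraries), 11 held a library farther from the rest than the 95% limit for a single extreme value. About 1 in 20 would be flagged by chance if the sets were independent. The genes share libraries, so no excess can be read from this count. In lung, Cd8a was at 70.0 CPM in air library 04-08 of 1 day (others 36.2 to 40.9) and at 205 CPM in silica library 30-31 of 6 months (others 52.4 to 74.6), and Cd8b was at 3.03 CPM in the latter (others 4.83 to 5.12). In blood of 6 months, air library 25 was high in Cd8a (292 CPM, others 54.8 to 102) and low in Foxp3 (0.965 CPM, others 4.93 to 6.76) and Ikzf2 (1.16 CPM, others 2.09 to 2.64). Before scaling, Ikzf2 was at 36 counts there and at 32 to 42 in the others. Its flag therefore rests on that library's TMM factor of 1.93. Foxp3 was at 30 counts against 68 to 116. Silica library 11 of 1 day was low in Cd28 (6.86 CPM) and Ctla4 (1.20 CPM). Cd3e was low in silica blood library 16 of 1 day (51.7 CPM, others 66.5 to 73.0), and Cd8b was high in air blood library 23 (33.3 CPM, others 4.12 to 13.3) and silica blood library 32 (17.3 CPM, others 8.73 to 11.9) of 6 months. Before scaling, Cd3e was at 922 counts in library 16 and lower, at 611, in silica library 11 of 1 day.

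The silica effect in lung differed between 6 months and 1 day, by edgeR contrasts, for Cd3e (log2 difference 1.75), Cd4 (0.92), Cd8a (-2.90), Cd8b (1.66), Foxp3 (2.29), Ctla4 (2.65) and Il2ra (1.90). At 6 months it differed between blood and lung for Foxp3 (-2.86), Ctla4 (-3.23) and Il2ra (-2.69). Both sets of differences rest on the 2 late air lungs that stood apart. With the library number as a block, the difference between blood and lung passed for none of these genes.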

How the results depend on the processing

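Counts below are of the 10 genes. The 1-day lung count of 1 and the blood counts of 0 were the same under every alternative run for them. In late lung the count of 8 ranged from 0 to 8 over fits without 1 library, and was 0 without air library 19-24 only; that fit leaves 1 air lung, assumed to vary like the silica lungs. With pairs separate, and with 1 or 3 pairs, the late lung count was 9. It was also 9 with RLE factors, with DESeq2 and with all 4 lung groups in 1 fit, and 7 with library size alone. Over fits without 1 library, the late minus early lung count of 7 ranged from 5 to 8, and it was 9 with pairs separate and with 3 pairs. Over such fits, for late air against early air lungs the count of 6 ranged from 2 to 8, and for late against early silica lungs that of 6 ranged from 3 to 7. The late blood minus lung count of 3 ranged from 0 to 8 over fits without 1 library, was 6 with library pairs kept separate and 6 with 1 pair counted as 1. It was 0 with a replicate block on the library number, whose p-values stand beside the result; at 1 day the count with the replicate block was 0. Whether the numbers pair the samples is not stated in the labels: of 17 lung and blood libraries with the same number, 3 correlated above 0.1 and 4 best with their own number. The versions with 1 or 3 pairs and with 1-day air lungs as control were chosen after seeing the data; with the latter, Cd8a reversed to 1.03. In late lung Cd8b passed with RLE factors (adjusted p = 0.0497), and Cd28 did not with library size alone (0.0533). Counts over all genes tested also moved. In late lung 3189 genes passed as reported, 6396 with pairs separate, 5489 with 3 pairs, 6499 with all 4 lung groups in 1 fit, and 56 to 4171 without 1 library. At 1 day in lung it was 1836 as reported, 594 with the 4 groups in 1 fit and 1188 to 2240 without 1 library. For late blood minus lung it was 193, against 56 with library size alone, 797 with pairs separate, 711 with 3 pairs, 4 with the replicate block and 3 to 1257 without 1 library; at 1 day it was 31, against 50 with pairs separate, 4 with the replicate block and 15 to 123 without 1 library. It was 1642 to 5570 for late minus early lung, 3643 to 8454 for late against early air and 766 to 2998 for late against early silica lungs without 1 library, against 4436, 6877 and 1597. In late lung, genes at 5 to 9 counts in air libraries limit the precision of Foxp3 and Ctla4.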
